A study of Rattus norvegicus with 24 samples.

Results

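The genes described here are 9 interferon response genes, measured in recellularized rat liver: the transcription factors Irf1 and Irf7, the antiviral effectors Mx1, Mx2 and Oas1a, the antigen processing genes Psmb9, Tap1 and Ubd, and the inflammasome protease Casp1. They were taken by name, as the probes whose annotated gene symbol is a listed member. The list itself was chosen with earlier results of these data known. Each of the 9 genes had 1 probe on the bead array, among 22523 probes and 13337 named genes, and all 9 passed the detection filter. The samples were constructs sampled 2, 15 and 28 days after seeding (n = 4, 4 and 3), freshly isolated hepatocytes (n = 4) and cadaveric liver (n = 4). The constructs were caudate lobes of rat liver stripped of cells with detergent and DNase and reseeded with cells freshly isolated from the livers of Sprague Dawley rats. All constructs were perfused with Williams' Medium E with fetal bovine serum, insulin, antibiotics and dexamethasone, a glucocorticoid, and the labels name no interferon or other added agent. The seeded cells were a hepatocyte preparation that was not sorted by cell type, and it is not stated whether constructs shared donor animals. The p-values therefore cover no more than the variation among the samples at hand.

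Interferons are secreted proteins, and those of type I are released by cells on sensing viral or other foreign nucleic acid. Interferons signal through receptors and kinases of the Jak family. Type I interferons act on genes through a complex that holds Irf9 and binds the interferon-stimulated response element, while interferon gamma acts at the gamma-activated site. Irf1 and Irf7 are transcription factors that are themselves induced and carry the response further, Irf7 being the main amplifier of type I interferon production. Mx1 and Mx2 are GTPases that block viral replication, in rodents in the nucleus and in the cytoplasm, and Oas1a makes the oligoadenylates that switch on the ribonuclease RNase L. Psmb9 is a catalytic subunit of the immunoproteasome, Tap1 a subunit of the transporter that carries peptides into the endoplasmic reticulum, and Ubd a ubiquitin-like modifier that marks proteins for the proteasome. Casp1 cuts the precursors of the inflammatory cytokines Il1b and Il18 and is abundant in macrophages. In liver the response is carried by hepatocytes as well as by resident macrophages.

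Promoters of these genes are shown because the elements named above are the classical entry points of interferon signaling. RefSeq promoter windows of 300 bases, from 250 bases before to 50 after the start site on build GRCr8, were at hand for 8 of the 9 genes, all but Mx2. They were searched on both strands for the response element core, GAAANNGAAA, and for the gamma-activated site, TTCNNNGAA. The core lay in 3.92% of 33469 rat promoters and the site in 8.874%. Irf7, Tap1 and Casp1 each held 1 core, Oas1a held 2 overlapping cores and 1 gamma-activated site, Irf1 held 1 gamma-activated site, and Mx1, Psmb9 and Ubd held neither within these letters. The windows of Irf1, Irf7, Oas1a and Casp1, 4 genes that were higher in day 28 than in day 2 constructs, are printed 5′ to 3′ on the strand of the gene, with the matches in capitals. The Irf7 and Casp1 cores lie on the opposite strand and read as the reverse complement.
Irf1, chr10:38417685-38417984, plus strand: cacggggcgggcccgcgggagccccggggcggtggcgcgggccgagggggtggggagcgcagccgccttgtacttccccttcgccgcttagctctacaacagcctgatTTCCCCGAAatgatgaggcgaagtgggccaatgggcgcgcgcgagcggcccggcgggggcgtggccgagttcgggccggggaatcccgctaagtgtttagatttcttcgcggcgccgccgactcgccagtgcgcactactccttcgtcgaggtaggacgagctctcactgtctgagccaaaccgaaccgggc
Irf7, chr1:205799974-205800273, minus strand: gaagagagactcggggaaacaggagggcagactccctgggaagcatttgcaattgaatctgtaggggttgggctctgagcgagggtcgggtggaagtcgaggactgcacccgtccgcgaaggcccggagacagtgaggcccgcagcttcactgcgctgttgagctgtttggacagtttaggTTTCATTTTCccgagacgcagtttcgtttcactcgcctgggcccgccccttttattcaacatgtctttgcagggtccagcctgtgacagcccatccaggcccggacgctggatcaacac
Oas1a, chr12:41330216-41330515, plus strand: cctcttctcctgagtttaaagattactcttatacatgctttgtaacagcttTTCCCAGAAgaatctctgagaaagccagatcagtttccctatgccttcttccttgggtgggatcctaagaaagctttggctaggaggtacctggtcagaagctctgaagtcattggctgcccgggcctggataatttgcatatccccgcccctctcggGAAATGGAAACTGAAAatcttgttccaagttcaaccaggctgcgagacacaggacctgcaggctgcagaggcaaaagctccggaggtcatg
Casp1, chr8:10872580-10872879, plus strand: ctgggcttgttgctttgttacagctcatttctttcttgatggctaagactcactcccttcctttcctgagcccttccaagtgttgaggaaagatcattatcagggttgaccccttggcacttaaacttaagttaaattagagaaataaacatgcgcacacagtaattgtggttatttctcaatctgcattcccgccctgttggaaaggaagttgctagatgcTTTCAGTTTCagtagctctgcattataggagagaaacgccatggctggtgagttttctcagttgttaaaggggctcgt

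In these windows the Irf1 match began 142 bases upstream of the start site, the Irf7 match 69 bases, the paired Oas1a cores 41 and 35 bases, and the Casp1 match 28 bases upstream. Tap1 and Psmb9 are divergent neighbors on chromosome 20, with start sites 457 bases apart, and the Tap1 core lay 121 bases upstream of its start. A match describes the letters of the window and was not tested as a binding site.

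RNA was measured on RatRef-12 BeadChips, 24 arrays for 19 samples, because 5 constructs were hybridized on a pair of arrays that were averaged. Levels are log2 values, background corrected and quantile normalized, on which 1 unit is a doubling. A probe is called detected in a sample where its detection p-value is under 0.05 on every array of that sample. Between 42.1% and 50.7% of probes were detected on an array. Technical duplicate arrays differed in the 9 genes by a median of 0.069 log2 units and by at most 0.57. Hepatocyte markers such as albumin were detected in every sample, with summed levels between 99051 and 131134 on the linear scale. These sums follow the brightest markers most and can hide a change in a dimmer one. Hnf4a, a dimmer marker of this list, was at 7.62, 7.87, 7.41 and 7.69 log2 units in cadaveric livers. In day 28 constructs it was at 5.52, 5.78 and 6.003. On day 28 against day 2, 1 of the 6 hepatocyte markers was called higher and 2 were called lower. The labels tag cadaveric livers with the cell type rat hepatocytes, but lymphocyte markers summed to 691 to 1014 there, against 296 to 408 in the other groups, and endothelial markers to 1689 to 2013, against 88 to 661.

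The antiviral effectors were raised by day 15. Mx1, Mx2 and Oas1a were higher in all 4 day 15 and all 3 day 28 constructs than in any day 2 construct, and between day 15 and day 28 none of them passed the test. Over the 3 days, 6 of the 9 genes passed limma's F test, against 59.7% of the 8283 genes tested in constructs, a share near that of the whole array. The median difference of day 28 minus day 2 was 1.59 over the 9 genes and -0.15 over all genes tested.

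**Figure D1:**
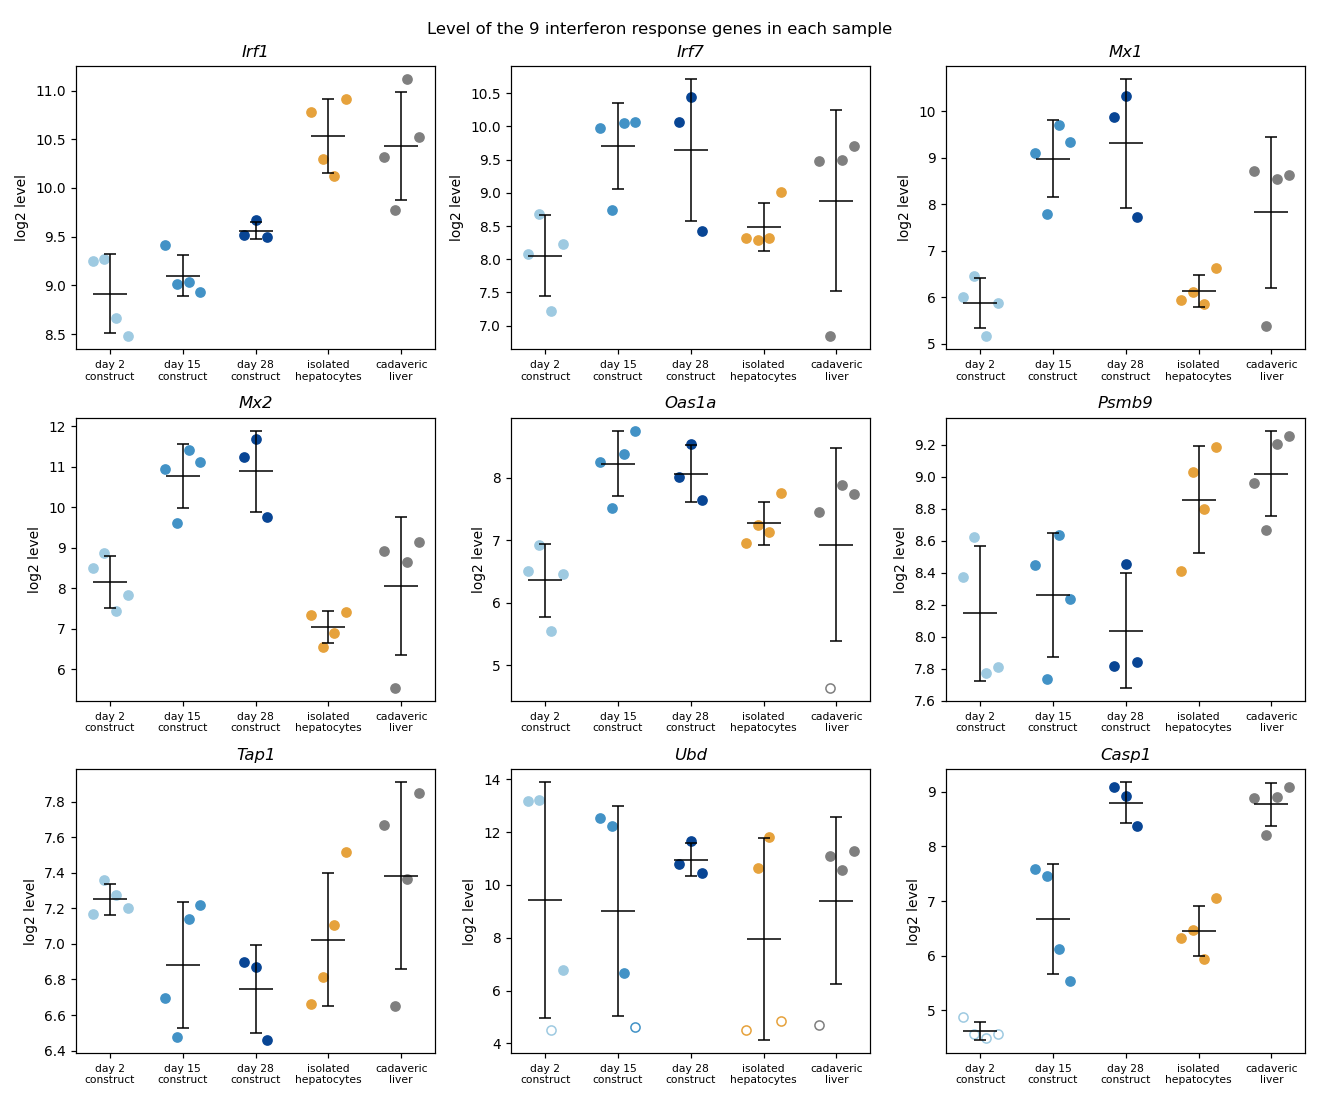
Log2 level (y axis, scaled separately in each panel) of the 9 genes in every sample of the 5 groups (x axis). Points are samples, filled where the probe was detected and open where it was not, and bars give the mean and SD over 3 or 4 samples. Mx1, Mx2 and Oas1a lie higher in day 15 and day 28 constructs than in day 2 constructs, Casp1 is higher at each later day, and Ubd spans from about background to far above it within groups.

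Mx1 stood at 6.004, 6.46, 5.16 and 5.88 log2 units in the 4 day 2 constructs, at 9.11, 7.79, 9.70 and 9.35 in day 15 constructs and at 9.88, 10.33 and 7.73 in day 28 constructs. Even the lowest later construct, at 7.73, was above the highest day 2 construct. The difference was 3.43 ± 0.60 log2 units (± SE) for day 28 minus day 2, a 10.8-fold change (adjusted p = 0.00058, limma), and 3.11 ± 0.56 for day 15 minus day 2 (adjusted p = 0.000863). Without day 28 replicate 3 the day 28 difference was 4.23.

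Mx2 too was higher on both later days. Its levels were 8.49, 8.87, 7.43 and 7.84 in day 2 constructs, 10.95, 9.61, 11.42 and 11.11 in day 15 constructs and 11.24, 11.67 and 9.75 in day 28 constructs. It was 6.65-fold higher on day 28 than on day 2 (2.73 ± 0.52, adjusted p = 0.00108) and 6.14-fold higher on day 15 than on day 2 (2.62 ± 0.49, adjusted p = 0.00111). The samples that were lowest for Mx1 on each day, day 2 replicate 3, day 15 replicate 2 and day 28 replicate 3, were lowest for Mx2 too.

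Oas1a changed less. It stood at 6.51, 6.93, 5.54 and 6.46 in day 2 constructs, at 8.25, 7.51, 8.38 and 8.75 in day 15 constructs and at 8.01, 8.54 and 7.64 in day 28 constructs. The groups did not overlap between day 2 and either later day. The rise was 3.25-fold by day 28 (1.70 ± 0.35, adjusted p = 0.00165) and 3.63-fold by day 15 (1.86 ± 0.32, adjusted p = 0.000719). For day 28 minus day 15 the intervals of the 3 effectors held 0: from -0.99 to 1.64 for Mx1, from -1.04 to 1.27 for Mx2 and from -0.93 to 0.61 for Oas1a.

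Of the transcription factors, Irf7 was called higher on both later days and Irf1 on day 28. Irf7 was at 8.07, 8.68, 7.22 and 8.24 in day 2 constructs, at 9.98, 8.74, 10.05 and 10.07 in day 15 constructs and at 10.07, 10.44 and 8.42 in day 28 constructs. It was 3.15-fold higher on day 15 than on day 2 (1.66 ± 0.46, adjusted p = 0.0117) and 3.01-fold higher on day 28 than on day 2 (1.59 ± 0.50, adjusted p = 0.0177). Day 28 replicate 3 fell within the day 2 range. The day 28 call for Irf7 was lost without day 28 replicate 1 (adjusted p = 0.07) or replicate 2 (adjusted p = 0.084), and the difference was 2.20 without replicate 3.

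Irf1 moved within a narrow range, 8.48 to 9.27 in day 2 constructs, 8.93 to 9.41 in day 15 constructs and 9.50 to 9.67 in day 28 constructs. It was 1.57-fold higher on day 28 than on day 2, with no overlap of the groups (0.65 ± 0.20, adjusted p = 0.0151), and the difference of day 15 minus day 2 was 0.18 ± 0.18 (adjusted p = 0.428). Its F test over the 3 days (adjusted p = 0.0366) no longer passed under 4 other settings, median scaling among them, or without any of 6 samples (adjusted p between 0.0514 and 0.118 over these), and its day 28 call was lost without day 28 replicate 2 (adjusted p = 0.0528).

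Casp1 had the largest day 28 difference from day 2 of the 9 genes. It was at 4.87, 4.57, 4.48 and 4.57 in day 2 constructs, at 7.58, 7.47, 6.11 and 5.53 in day 15 constructs and at 9.09, 8.93 and 8.38 in day 28 constructs. No day 2 construct had a detected signal, only 1 of their 6 arrays did, and every later construct had one, so that the folds from day 2 rest on values at background. Casp1 was higher on day 28 than on day 2 by 4.18 ± 0.43 (adjusted p = 1.86e-05), on day 15 than on day 2 by 2.05 ± 0.40 (adjusted p = 0.00147), and on day 28 than on day 15 by 2.13 ± 0.43 (adjusted p = 0.0155). It alone of the 9 genes passed between day 28 and day 15, where 9.18% of all genes did (4.36% higher and 4.82% lower), and this call was lost without day 28 replicate 1 (1.98, adjusted p = 0.0636).

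Within day 15, Casp1 separated constructs 1 and 2, at 7.58 and 7.47, from constructs 3 and 4, at 6.11 and 5.53. Summed stellate cell and fibroblast markers on the linear scale stood at 1397 and 2438 in the first pair and at 775 and 577 in the second, and over the constructs they ranged from 185 to 357 on day 2, from 577 to 2438 on day 15 and from 2561 to 3496 on day 28. Cholangiocyte markers went the other way within day 15, at 3550 and 3893 in constructs 1 and 2 and at 5371 and 4962 in constructs 3 and 4. They ranged from 769 to 944 on day 2, from 3550 to 5371 on day 15 and from 2912 to 3172 on day 28. Macrophage markers, 8 on the array, summed to between 1226 and 1474 on day 2, 1392 and 2360 on day 15 and 1246 and 1961 on day 28. Within day 15 they summed to 2360 and 1931 in constructs 1 and 2 and to 1923 and 1392 in constructs 3 and 4. Marco and Adgre1 were detected on no construct array of any day. Cd14 was the brightest of these markers in every construct, so that the sums follow it most. Of 4 macrophage markers tested in constructs, 2 were higher and none lower on day 28 against day 2 (median 0.86). Against day 15, none was higher and 1 was lower (median 1.28). The part of these cell types in the Casp1 levels was not tested, and in such bulk RNA fewer cells of a type and less RNA per cell cannot be told apart.

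None of the antigen processing genes was called higher on a later day. Psmb9 ranged from 7.77 to 8.62 in day 2 constructs, from 7.74 to 8.63 in day 15 constructs and from 7.82 to 8.45 in day 28 constructs, and the difference of day 28 minus day 2 was -0.11 ± 0.26, with an interval from -0.69 to 0.47. Tap1 ranged from 7.17 to 7.36 on day 2, from 6.48 to 7.22 on day 15 and from 6.46 to 6.90 on day 28. It was lower on day 28 than on day 2 by a difference of -0.51 ± 0.18 (adjusted p = 0.0306). That call was lost without day 28 replicate 3 (-0.36, adjusted p = 0.131), day 2 replicate 2 (adjusted p = 0.0671) or day 2 replicate 3 (adjusted p = 0.0593), with median scaling in place of quantile normalization (-0.30, adjusted p = 0.177), with the replicate number as a block (-0.46, adjusted p = 0.0904) and with all 5 groups in the fit (adjusted p = 0.1004). None of the partner subunits passed between these days. Psmb8 and Psmb10, the other immunoproteasome subunits, gave -0.17 ± 0.19 and -0.35 ± 0.23, and Tap2, the partner of Tap1 in the transporter, gave -0.32 ± 0.17. Of the constitutive proteasome subunits that they replace, Psmb6 was lower on day 28 (-0.31 ± 0.08, adjusted p = 0.00679), while Psmb5 and Psmb7 gave -0.15 and -0.07.

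Ubd differed more between samples of a group than any other of the 9 genes. In day 2 constructs it was at 13.18 and 13.24 in replicates 1 and 2 and at 4.52 and 6.77 in replicates 3 and 4. In day 15 constructs it was at 12.55 and 12.23 in replicates 1 and 2 and at 6.68 and 4.63 in replicates 3 and 4, and all 3 day 28 constructs were high, at 10.78, 11.65 and 10.47. Hepatocytes were at 4.50, 10.64, 11.84 and 4.84, and cadaveric livers at 4.69, 11.09, 10.56 and 11.28. Day 2 replicate 4 and day 15 replicate 3 lay between the high samples and the undetected ones. The signal was above 10 log2 units in some samples of every group and not detected in 1 day 2 construct, 1 day 15 construct, 2 hepatocyte preparations and 1 cadaveric liver, and both arrays of each duplicated construct lay within 0.112 log2 units of each other. Its pooled within-group SD of 3.60 was the widest of the 8825 genes tested over the 5 groups, against a median of 0.20, and no comparison of Ubd between groups passed the test.

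Across the construct comparisons, day 28 against day 2 gave 6 of the 9 genes higher and 1, Tap1, lower (background 57.2% of 8283 genes called in either direction, 22.3% higher and 35% lower). On day 15 against day 2, 5 were higher and none lower (49.1% called, 21.4% higher and 27.7% lower). The groups lay wholly apart, with the later day higher, for 5 genes on day 28 against day 2 (23.2% of all genes) and for 5 on day 15 against day 2 (19.8%). The medians were 1.59 and 1.66 over the 9 genes, against -0.15 and -0.07 over all genes tested.

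**Figure D2:**
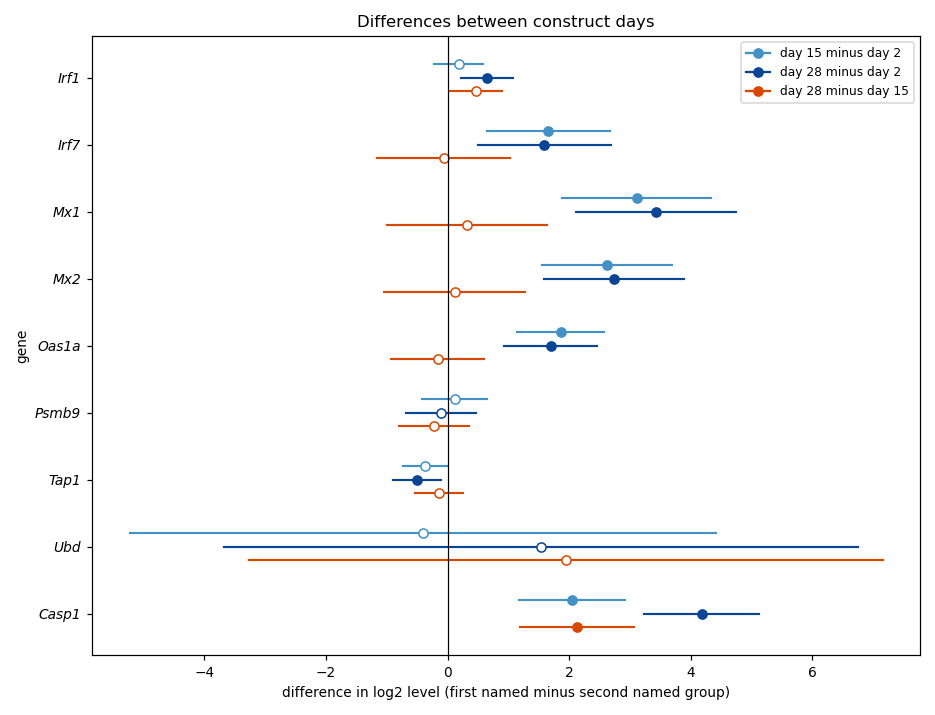
Difference in log2 level (x axis, first named minus second named day) of the 9 genes (y axis) in constructs, from limma, with 95% intervals; filled points passed an adjusted p of 0.05. Day 15 and day 28 points lie close together for Irf7, Mx1, Mx2 and Oas1a, and Casp1 alone passed between day 28 and day 15.

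A wider list of the pathway, 125 genes of which 90 were on the array under their names and 62 were tested in constructs, was counted in the same way. On day 28 against day 2, 18 of its genes were higher and 6 lower. Of all genes, 22.3% were higher and 35% lower. The median difference of the list was 0.15, against -0.15 over all genes. Day 15 against day 2 gave 18 higher and 5 lower, beside 21.4% and 27.7% of all genes. Of 19 other antiviral effectors, day 28 constructs had 8 higher and 3 lower than day 2 constructs, beside the same 22.3% and 35%. The strongest calls upward were Gbp2, an interferon-inducible GTPase (2.73 ± 0.29, adjusted p = 2.16e-05), Ifitm1, a membrane protein that blocks viral entry (3.47 ± 0.41, adjusted p = 4.23e-05), and Oasl2, an oligoadenylate synthetase relative (3.08 ± 0.42, adjusted p = 0.000121). The strongest downward, beside Psmb6, were Trim25 (-0.73 ± 0.17, adjusted p = 0.00317) and Bst2, which tethers budding virus to the cell (-0.61 ± 0.15, adjusted p = 0.00437). Irf9, the DNA-binding subunit of the type I response complex, was higher by 0.69 ± 0.19 (adjusted p = 0.00773).

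Of 5 interferon genes on the array, only Ifng was tested in constructs, at 4.91 on day 28 and 4.97 on day 2 (adjusted p = 0.671). Its probe was detected in only 7 of the 19 samples, so these levels lie near background and a change could be missed. Among 7 antigen processing genes other than the 9, none passed on day 28 against day 2, where 57.2% of all genes did. Between day 28 and day 15, 5 of 62 pathway genes were higher and none lower, where 4.36% of all genes were higher, and the count was 1 without day 28 replicate 1 and 12 without day 15 replicate 2. They were led by Ifitm1 (2.24 ± 0.41, adjusted p = 0.00986), Ifitm3 (1.46 ± 0.30, adjusted p = 0.0168) and Ifi44 (0.95 ± 0.24, adjusted p = 0.0309).

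Pycard, the adaptor that recruits Casp1 to the inflammasome, was higher on day 28 than on day 2 (1.52 ± 0.29, adjusted p = 0.000943) and on day 15 (1.09 ± 0.29, adjusted p = 0.0398). It alone of the 5 inflammasome genes tested beside Casp1 was called on day 28 against day 2. On day 15 against day 2 none of the 5 was higher and 2 were lower, Casp4 among them (-0.95 ± 0.27, adjusted p = 0.0134). Il1b, a Casp1 substrate, was at 4.86 in day 28 constructs and 8.85 in cadaveric liver (-3.99 ± 0.22, adjusted p = 4.17e-11). The Il1b level on day 28 lies near that of undetected probes such as Casp1 on day 2, at 4.48 to 4.87.

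The order of the 5 groups differed among the genes. For Mx1 and Mx2 the day 28 and day 15 constructs stood highest, for Irf7 and Oas1a the day 15 and day 28 constructs, and these neighbors overlapped. For Irf1 the order was hepatocytes, cadaveric liver, then day 28, day 15 and day 2 constructs, and the day 28 constructs overlapped neither cadaveric liver nor day 15 constructs. For Psmb9 the means of cadaveric liver and hepatocytes stood above those of all construct days. Every neighboring pair of groups overlapped for Irf7, Mx1, Oas1a, Psmb9, Tap1 and Ubd. For Casp1 the order was day 28 constructs, cadaveric liver, day 15 constructs, hepatocytes and day 2 constructs, with overlap between the first pair and between day 15 constructs and hepatocytes.

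Against cadaveric liver, constructs were low in Irf1 and Psmb9 on every day and high in Mx2 on the later days. Irf1 gave -1.52 ± 0.25 on day 2, -1.33 ± 0.25 on day 15 and -0.87 ± 0.27 on day 28 (adjusted p = 3.05e-05, 0.000141 and 0.00929), from construct values of 8.48 to 9.67 against 10.31, 9.77, 11.12 and 10.52 in the 4 livers. Psmb9 gave -0.87 ± 0.23, -0.76 ± 0.23 and -0.98 ± 0.25 (adjusted p = 0.00324, 0.00961 and 0.00271), with livers between 8.67 and 9.25. Psmb8 and Psmb10 were lower too on day 28 (-1.17 ± 0.19 and -1.33 ± 0.22). With median scaling in place of quantile normalization, where the median of all genes shifted by 0.30 toward the constructs on day 28, Psmb9 no longer passed on any day and Irf1 not on day 28.

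Mx2 stood at 8.91, 5.53, 8.65 and 9.13 in the livers, so that every day 15 and day 28 construct was higher. It was 6.58-fold higher on day 15 than in liver (2.72 ± 0.64, adjusted p = 0.0013) and 7.13-fold higher on day 28 (2.83 ± 0.69, adjusted p = 0.00179), and the differences were 1.88 and 1.99 without cadaveric liver replicate 2. Mx1 in the livers was 8.73, 5.39, 8.55 and 8.64. It was lower on day 2 (-1.95 ± 0.66, adjusted p = 0.0153, -2.76 without cadaveric liver replicate 2, adjusted p = 0.0531 without replicate 1 and 0.0506 without replicate 4) and gave 1.16 ± 0.66 and 1.48 ± 0.71 on day 15 and day 28, short of the threshold. Under median scaling Mx1 passed on both days (1.57, adjusted p = 0.0317, and 1.88, adjusted p = 0.0185), as did Irf7 on day 15 (1.30, adjusted p = 0.0451) and Oas1a on day 28 (1.57, adjusted p = 0.0122), and without day 28 replicate 3 Mx1 passed on day 28 (2.27, adjusted p = 0.013). Oas1a, at 7.46, 4.64, 7.88 and 7.74 in the livers, with 4.64 not detected, was higher on day 15 (1.29 ± 0.53, adjusted p = 0.043), a call lost without cadaveric liver replicate 2 (0.53, adjusted p = 0.165), without any of 6 other samples (adjusted p between 0.0502 and 0.107) and with only the compared groups fitted (adjusted p = 0.126).

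Casp1 came closest to liver on day 28. It was at 8.89, 8.20, 8.90 and 9.09 in cadaveric livers, and day 28 constructs differed from them by 0.03 ± 0.39, with an interval from -0.80 to 0.85. On day 2 it was lower than in liver by a difference of -4.15 ± 0.36 (adjusted p = 1.48e-08) and on day 15 by -2.10 ± 0.36 (adjusted p = 7.3e-05). The 8 macrophage markers summed to 1246 to 1961 in day 28 constructs, against 6932 to 12724 in cadaveric liver, where all 8 were detected on every array.

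Of the 9 genes, 4 were called on day 2 against liver (background 60.6%, 34.5% higher and 26.1% lower), all of them lower, 5 on day 15 (58%, 31.4% higher and 26.5% lower), 2 higher and 3 lower, and 4 on day 28 (57.1%, 29.5% higher and 27.6% lower), 1 higher and 3 lower, the third lower gene on day 28 being Tap1 (-0.64 ± 0.25, adjusted p = 0.0367), a call lost under median scaling (-0.08) and without any of 5 samples (adjusted p between 0.0518 and 0.152). Of 67 pathway genes, 6, 10 and 12 stood higher and 33, 27 and 27 stood lower at the 3 sampling days. Cxcl9, a chemokine induced by interferon gamma, was higher on all 3 days (2.38, 2.92 and 2.22). Ifi47, an interferon-inducible GTPase, was 4.57 log2 units lower in day 2 constructs. Of the 9 listed interferon-gamma GTPases and chemokines, these among them, 1, 2 and 3 were higher and 5, 5 and 4 lower on the 3 days. Mavs, the adaptor of the RNA sensors, and Ifi35 were lower on all 3 days. These comparisons share the same 4 livers. Without cadaveric liver replicate 2, limma also called Irf7 (-1.51, adjusted p = 0.00573) and Oas1a (-1.33, adjusted p = 0.00145) lower on day 2. Tap1 was then called lower on day 15 (-0.74, adjusted p = 0.00513), while the Oas1a call on day 15 was lost, as given above.

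**Figure D3:**
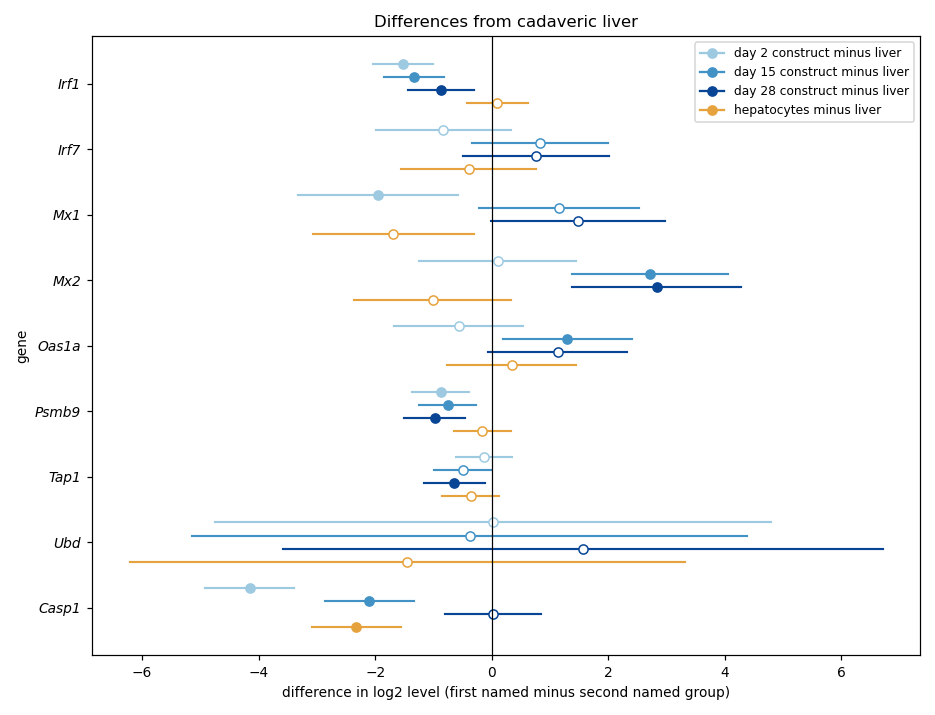
Difference in log2 level (x axis) of the 9 genes (y axis) in day 2, day 15 and day 28 constructs and in isolated hepatocytes, each minus cadaveric liver, from limma with 95% intervals; filled points passed an adjusted p of 0.05. Irf1 and Psmb9 lie below liver on every construct day, Mx2 above it on day 15 and day 28, and the Casp1 point for day 28 lies near 0.

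Against freshly isolated hepatocytes, day 2 constructs were lower in Irf1 (-1.61 ± 0.25, adjusted p = 1.68e-05), Psmb9 (-0.71 ± 0.23, adjusted p = 0.0141) and Casp1 (-1.82 ± 0.36, adjusted p = 0.000281), 3 of 9 genes where 58.3% of 8825 genes were called, 32.6% higher and 25.7% lower. The Psmb9 call was lost under median scaling (-0.17, adjusted p = 0.596) and without hepatocyte replicate 4, day 2 replicate 3 or day 2 replicate 4 (adjusted p between 0.05001 and 0.0552), while median scaling added Mx2 (1.70, adjusted p = 0.0189) and Tap1 (0.74, adjusted p = 0.0136), both higher. Hepatocyte Irf1 was 10.78, 10.30, 10.12 and 10.92, above every construct. Mx2 was above the hepatocyte values of 7.33, 6.55, 6.88 and 7.40 in every day 2 construct, a difference of 1.11 ± 0.64 that did not pass with all groups in the fit (adjusted p = 0.148) and passed with the pair alone (adjusted p = 0.00803). Oas1a gave -0.91 ± 0.53 (adjusted p = 0.151), and -0.91 with adjusted p = 0.0132 in the pair alone. Of 67 pathway genes, 10 were higher and 32 lower.

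Hepatocytes against cadaveric liver gave 1 call among the 9 genes (22.7% of all genes called, 11.3% higher and 11.3% lower). Casp1, at 6.33, 6.47, 5.94 and 7.05 in hepatocytes, was lower than in liver (-2.33 ± 0.36, adjusted p = 0.000102). Il1b, Pycard and Irf5 were lower as well (-2.67, -2.62 and -1.68), 7 of 8 macrophage markers were lower, and their summed level was 2131 to 2597 in hepatocytes and 6932 to 12724 in liver. Mx1, at 5.94, 6.12, 5.86 and 6.64 in hepatocytes, gave -1.69 ± 0.66 (adjusted p = 0.0738). Without cadaveric liver replicate 2, Mx1, Mx2, Tap1 and Casp1 were all called lower in hepatocytes. Cxcl10, another interferon-induced chemokine, was higher in hepatocytes (2.98 ± 0.45, adjusted p = 7.48e-05), beside Socs3 and Mov10.

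Within the groups, Irf7, Mx1, Mx2 and Oas1a moved together from sample to sample. These 4 genes were singled out after their values were seen. Over the 19 samples, with each group's mean removed, the 6 pairwise correlations among them lay between 0.91 and 0.98, and between 0.83 and 0.97 without cadaveric liver replicate 2. The 20 correlations of these genes with the other members lay between -0.14 and 0.80, with Ubd lowest and Tap1 highest. All values come from the same 19 samples and the same arrays, and the correlations are given as a description.

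The samples that stood low were day 2 replicate 3, day 15 replicate 2, day 28 replicate 3 and cadaveric liver replicate 2, whose mean deviation over the 4 genes was -0.77, -1.01, -1.09 and -2.32 log2 units. The hepatocyte preparations lay within -0.19 and 0.47. In cadaveric liver replicate 2 the difference from the mean of the other 3 livers was -2.73 log2 units for Irf7, -3.25 for Mx1, -3.37 for Mx2 and -3.06 for Oas1a. Mx2 was the furthest below of all 8825 genes by this measure. Among pathway genes picked after their values were seen, Irf9, at 7.34 in that liver and 9.10, 9.003 and 8.79 in the others, and Usp18, the isopeptidase that damps interferon signaling, at 4.46 against 6.96, 7.24 and 7.36, lay low as well.

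The same samples stood low in the wider list. Of 67 pathway genes other than the 9, cadaveric liver replicate 2 was the lowest of its group in 70.1%, against 24.7% of all 8825 genes. Day 15 replicate 2 was lowest in 68.7% against 33.2%, day 28 replicate 3 in 55.2% against 34.7%, and day 2 replicate 3 in 44.8% against 20.0%. In hepatocytes the widest share was 40.3% in replicate 1, against 28.0%. Macrophage markers in cadaveric liver replicate 2 summed to 6932, against 10630, 11662 and 12724 in the other livers, and lymphocyte markers to 691 against 1014, 912 and 763. In day 28 replicate 3 macrophage markers summed to 1961, against 1497 and 1246 in the other day 28 constructs. The part of these cells in the low levels was not tested.

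**Figure D4:**
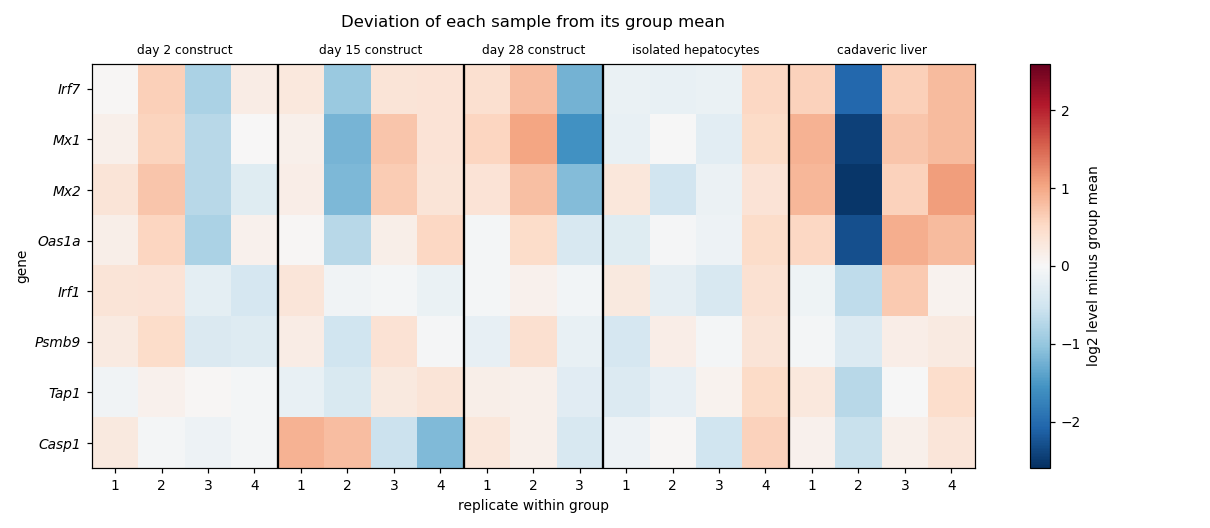
Log2 level of 8 of the 9 genes (rows) minus the mean of the sample's group (color), for each replicate (columns) of the 5 groups; Ubd is left out because its spread is several-fold wider. The blue columns in Irf7, Mx1, Mx2 and Oas1a are day 2 replicate 3, day 15 replicate 2, day 28 replicate 3 and cadaveric liver replicate 2.

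**Figure D5:**
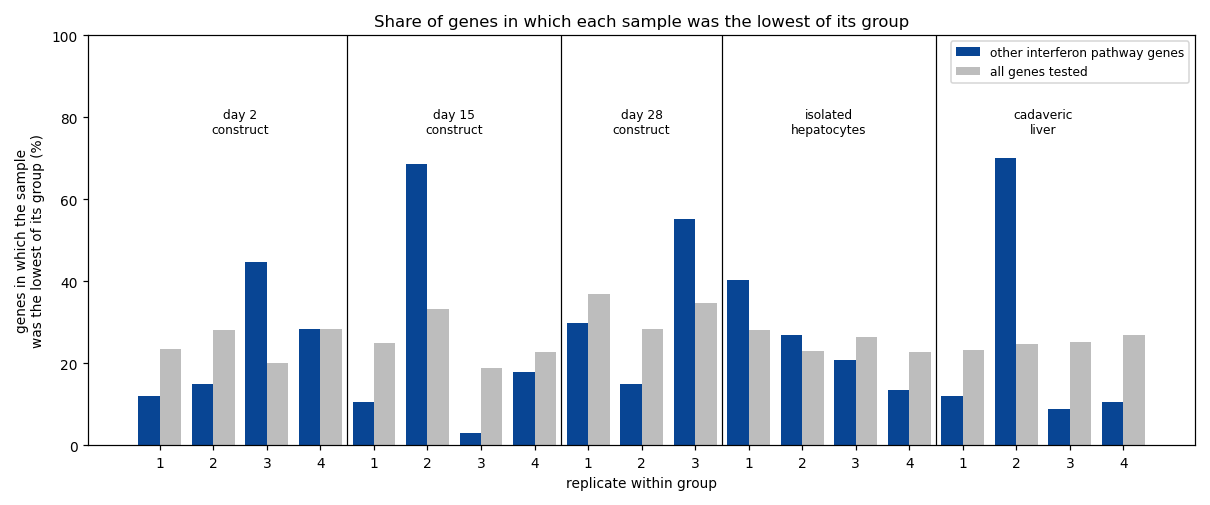
Share of genes (y axis, percent) in which each replicate (x axis) was the lowest of its group, for 67 pathway genes other than the 9 (blue) and for all 8825 genes tested (gray). Cadaveric liver replicate 2 and day 15 replicate 2 are lowest in 70.1% and 68.7% of pathway genes.

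The genes nearest to each member were found by the root mean square difference of their centered log2 profiles over the 19 samples. For Irf7 the nearest were Oas1a (0.37 log2 units), Oasl (0.50) and Oas1i (0.56), against a median of 1.09 over all genes. For Mx1 they were Oasl2 (0.56), Mx2 (0.77) and Lgals3bp (0.78), for Mx2 Mx1 (0.77), Oasl (0.82) and Cmpk2 (0.83), and for Oas1a Irf7 (0.37), Usp18 (0.52) and Oas1i (0.54). The Oas1 genes are close paralogs, and cross-hybridization between their probes was not tested. The nearest profiles to these 4 genes were mostly other members or listed pathway genes. Psmb9 was nearest to Tapbpl (0.20), Trabd (0.25) and Psmb8 (0.27), and Tap1 to RT1-M10-1 (0.23), Kcnd2 (0.25) and RT1-CE15 (0.26), the RT1 genes lying in the rat major histocompatibility complex. Casp1 was nearest to Ifitm1 (0.37), Cd48 (0.39) and Ehd3 (0.41), against a median of 1.73. Irf1 was nearest to Sdc2 (0.33), Ier3 (0.33) and Cyp4f4 (0.34). For Ubd even the nearest gene, Clic2, lay 2.32 log2 units away, against a median of 3.27.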

How the data were processed

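Gene expression was measured on Illumina RatRef-12 BeadChips. The deposited log2 values were background corrected and quantile normalized by the authors with limma (no version stated), and were used as the main values. The authors' deposited bead intensity values and detection p-values came from a separate table. Its columns were tied to the log2 values by identity of the values (largest difference 0.00628 for the matched array, at least 0.842 for the next), since replicate numbers differed on 14 of 24 arrays, always within a group. A further 24 columns of sample values with names that match no label were not used.

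The 842 control probes were left out. Of 22523 probes, 13793 had 1 gene symbol and 8730 had none. Duplicate arrays of 5 constructs were averaged. Genes with a detection p under 0.05 on every array of at least 3 of the samples in a fit were kept, by their brightest probe, and tested with limma 3.58.1 in R 4.3.3 with Benjamini-Hochberg adjustment at 0.05. Comparisons between days, and the F test over days, were fitted on the constructs (8283 genes), and the others on all 5 groups (8825 genes). Tests were checked on simulated data with independent noise for each gene and few changed genes. That check does not cover samples that deviate in many genes together. Differences are on the log2 scale and folds on the linear scale, and the number of samples limits their precision.

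All 9 genes are named. Of the pathway list, up to 3 genes with the lowest adjusted p in each direction and the partners of the 9 genes are named. Ifng, and Pycard between construct days, were named outside this rule. Other genes picked otherwise are said to be. The 9 genes and all lists were chosen with earlier results of these data known. Marker levels are sums of unlogged normalized values. Alternatives were other normalizations, filters, probe rules, samples in the fit, a replicate block, the methods' analysis of variance and leaving out each sample. A slide block was not run.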

Additional observations from a re-analysis of the deposited data

Results flagged for a closer look

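Of 36 sets of 4 samples of a group, 7 held a sample that stood apart from the others by Dixon's criterion, which chance alone meets in about 1 in 20 sets. Cadaveric liver replicate 2 was the lowest of its group for Irf7 (6.84 log2 units), Mx1 (5.39), Mx2 (5.53) and Oas1a (4.64, not detected). Irf7 also stood apart in day 15 construct replicate 2, lowest at 8.74, and in hepatocyte replicate 4, highest at 9.02. Ubd stood apart in cadaveric liver replicate 1, lowest at 4.69 and not detected. The 4 genes that single out cadaveric liver replicate 2 vary together, so that their marks are not independent.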

How the results depend on the processing

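No call of a single gene changed direction under any alternative run. Over the 810 values from other settings, 783 kept their side of the threshold, 18 lost it and 9 gained it, and over the 1251 values with a sample left out the counts were 1204, 31 and 16. Counts of the 9 genes called moved by over 1.5 times in 3 comparisons. Day 28 against day 15 gave 0 to 1 with a sample left out, 0 without day 28 replicate 1. Hepatocytes against cadaveric liver gave 1 to 4, with 4 without cadaveric liver replicate 2 and 2 without day 28 replicate 3. Day 2 constructs against hepatocytes gave 5 with only these groups in the fit and 2 to 5 with a sample left out, 5 without cadaveric liver replicate 2. The deviations of same-numbered samples had a median correlation of -0.02 over 36 pairs (from -0.28 to 0.27). Over 108 pairs of other numbers it was 0.01 (from -0.42 to 0.49). The numbers were not taken as pairs. Since they differ between the deposited tables, this check cannot show whether samples were paired. With the replicate block, 6 genes were called over the 3 days, 6 on day 28 against day 2 and 5 on day 15 against day 2. The block gave 1 for day 28 against day 15 and for hepatocytes against liver, 3 for day 2 against hepatocytes, and 4, 6 and 3 for day 2, 15 and 28 against liver. The methods' analysis of variance called 6 of the 9 genes unadjusted and 5 after adjustment, against 5175 and 4691 of all 8283 genes. With median scaling, 25.8% of the calls for hepatocytes against liver were higher (49.98% with the deposited values), 75.7% for day 2 against hepatocytes (55.9%), and 71.2%, 74.5% and 74.1% for day 2, 15 and 28 against liver (56.9%, 54.2% and 51.6%). Over all genes, day 28 against day 15 gave 760 calls, 347 with the block and 236 to 1241 with a sample left out (236 without day 28 replicate 1, 1241 without day 15 replicate 2). Of the pathway list, 23 genes were called on day 15 against day 2, and 13 without day 2 replicate 3 or day 15 replicate 1. Day 28 against day 15 gave 5 pathway genes, 2 with the block or with no detection filter, and 1 to 12 with a sample left out (1 without day 28 replicate 1, 12 without day 15 replicate 2). The causes were not tested. For probes near background, such as Casp1 on day 2, the array gives only an upper level.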
